A study of Homo sapiens with 6 samples.

Results

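The nuclear genes of oxidative phosphorylation were taken as the protein-coding genes on chromosomes 1 to 22 and X whose symbols begin with NDUF, UQCR, SDH (A to D and AF), ATP5, or COX and a digit. The RefSeq gene table of GRCh38.p14 held 109 such genes among 19974 protein-coding genes on these 23 chromosomes, and peaks were assigned to a gene when they shared at least 1 bp with its interval extended by 1 kb on either side. By complex they comprised 45 genes of complex I, 8 of complex II, 9 of complex III, 26 of complex IV and 19 of complex V, with 2 read-through genes, ATP5MF-PTCD1 and NDUFC2-KCTD14, that share sequence and peaks with ATP5MF and NDUFC2. The subunit long known as NDUFA4 and its paralog NDUFA4L2 are listed as COXFA4 and COXFA4L2 in that table, so the symbol rule did not count them.

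The chromatin was that of KOLF2.1J cells, a human induced pluripotent stem cell line, taken through neural progenitors to neurons by a BrainPhys protocol, and the labels name no treatment. CTCF and H3K27ac were each immunoprecipitated in 2 libraries, and 2 input libraries had no antibody. The study was concerned with regulatory elements of the tau gene MAPT, and it deposited 1 peak list per antibody that covers both libraries. No spread between replicates can be given, the read depth behind a peak is unknown, and no test across samples was possible. All libraries came from this 1 line. In such bulk chromatin, a mark in fewer cells and a lower mark in every cell cannot be told apart.

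Oxidative phosphorylation passes electrons from NADH and succinate through complexes I to IV to oxygen, and complex V uses the resulting proton gradient to make ATP. A few subunits are encoded in mitochondrial DNA, but most subunits and every assembly factor are encoded in the nucleus, and neurons depend heavily on this source of ATP. H3K27ac is an acetylation of histone H3 found at active promoters and enhancers, and CTCF is a zinc finger protein that binds DNA at loop anchors and at many promoters.

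Neuronal identity was checked through H3K27ac at markers. All 10 neuron markers had a peak, with a median highest fold enrichment of 17.4 per gene. So had all 6 neural progenitor markers, with a median of 35.4, while 4 of 6 astrocyte and oligodendrocyte markers, 2 of 4 pluripotency markers and 3 of 6 liver and muscle markers had one. The pluripotency markers POU5F1 and NANOG had none, whereas LIN28A reached 4.83 and DPPA4 7.63. In the liver and muscle list ALB, ACTA1 and TTN had none, CKM reached 2.29 and APOA1 4.62, and MYH7 reached 20.4, above the neuron markers' median.

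An H3K27ac peak was listed at 101 of the 109 genes (92.7%, 95% Wilson interval 86.2 to 96.2%, which covers counting error only), against 70.8% of all protein-coding genes. At least 2 peaks were listed at 67 genes (61.5%, against 54.1%). The number with any peak was 101 as well when only the strongest 50% of H3K27ac peaks were kept. The 8 genes without a peak were COX4I2, COX6A2, COX6B2, COX7A1, COX7B2, COX8C, UQCRHL and ATP5MGL. The 6 complex IV subunits among them are isoforms known for restricted expression, in muscle and heart (COX6A2, COX7A1), lung (COX4I2) or testis (COX6B2, COX7B2, COX8C). UQCRHL and ATP5MGL are copies of UQCRH and ATP5MG. The remaining 101 genes had highest fold enrichments from 4.87 to 58.5 with a median of 19.1, and the 14148 protein-coding genes with a peak had a median of 15.7. The fold enrichment is the authors' value for each peak and was used only to describe and rank peaks within the H3K27ac list.

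Each of these 8 genes has a widely expressed partner, for which the values follow as a description. The highest fold enrichment was 11.0 at COX4I1, 15.0 at COX6A1 and 5.42 at COX6B1. It was 16.5 at COX7A2, 20.9 at COX7B and 29.8 at COX8A. UQCRH reached 36.1 and ATP5MG reached 32.6. All 8 partners thus had a listed peak, over a wide range of levels, with COX6B1 near the bottom of the whole family. The pairs were chosen with earlier results of these data known, and the absence of a peak at the other gene of each pair is what places it among the 8, so the contrast supports nothing further. UQCRHL and ATP5MGL closely resemble their parent genes, and how reads that fit more than 1 place were treated is not given in the sources used here. The NDUFA4 pair, outside the symbol rule, did not show this contrast: COXFA4 had a fold enrichment of 43.5 and COXFA4L2 one of 26.6.

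The distance of 1 kb decided none of these calls. No gene owed its H3K27ac peak to the extension alone, and the nearest H3K27ac peak to an unmarked gene lay 3.89 kb from COX6B2. That peak had a fold enrichment of 4.22 and fell at KMT5C. For the others the distance ran from 4.23 kb at ATP5MGL to 37.3 kb at COX7B2. COX7B2 is the only one of the 8 with CTCF in its interval. Its 2 CTCF peaks, with signal values of 127 and 81.9 on the authors' unstated scale, lay 64.7 and 22.3 kb downstream of its start and did not overlap H3K27ac.

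**Figure D1:**
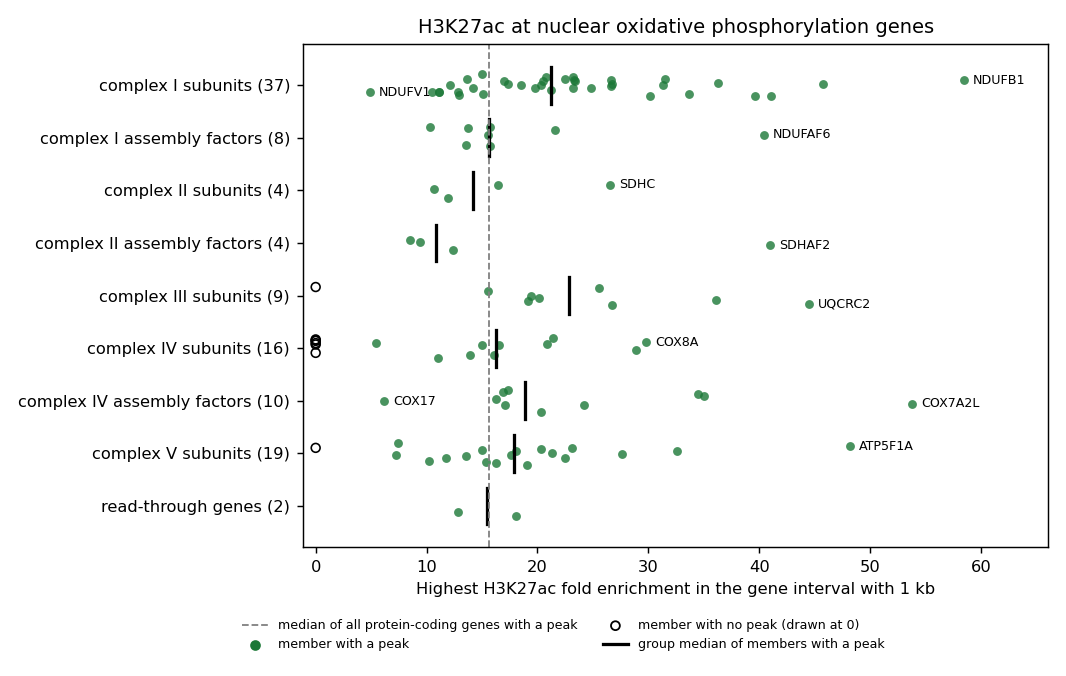
Highest H3K27ac fold enrichment per gene (x axis, linear) for the 109 genes by role group (y axis, number of genes in brackets). Filled points are genes with a peak, open points at 0 are the 8 genes with none, black bars are group medians and the dashed line is the median of 15.7 over all protein-coding genes with a peak.

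Promoter sequence was compared within 2 of the pairs. RefSeq promoter windows of GRCh38.p14, which run from 250 bases before to 50 bases after a start, matched 90 of the 109 genes in 112 windows. The windows of the muscle and liver pair COX6A2 and COX6A1 and of the pair COX8C and COX8A are shown because each holds a marked and an unmarked promoter of the same subunit. Capitals mark CpG dinucleotides, and the start of the gene is base 251. They lie at chr12:120437863-120438162 on the plus strand (COX6A1), chr16:31428311-31428610 on the minus strand (COX6A2), chr11:63974370-63974669 on the plus strand (COX8A) and chr14:93346932-93347231 on the plus strand (COX8C).
COX6A1: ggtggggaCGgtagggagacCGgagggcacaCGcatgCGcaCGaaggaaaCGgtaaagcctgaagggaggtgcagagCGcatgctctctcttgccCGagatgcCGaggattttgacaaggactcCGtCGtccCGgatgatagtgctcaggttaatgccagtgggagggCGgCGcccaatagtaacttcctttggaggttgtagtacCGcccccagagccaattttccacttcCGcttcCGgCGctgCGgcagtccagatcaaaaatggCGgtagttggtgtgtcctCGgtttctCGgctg
COX6A2: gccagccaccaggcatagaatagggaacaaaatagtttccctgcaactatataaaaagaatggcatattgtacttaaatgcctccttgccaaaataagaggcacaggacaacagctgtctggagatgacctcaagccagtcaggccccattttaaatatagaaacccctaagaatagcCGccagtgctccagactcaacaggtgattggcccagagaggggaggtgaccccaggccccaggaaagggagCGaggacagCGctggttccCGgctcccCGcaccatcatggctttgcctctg
COX8A: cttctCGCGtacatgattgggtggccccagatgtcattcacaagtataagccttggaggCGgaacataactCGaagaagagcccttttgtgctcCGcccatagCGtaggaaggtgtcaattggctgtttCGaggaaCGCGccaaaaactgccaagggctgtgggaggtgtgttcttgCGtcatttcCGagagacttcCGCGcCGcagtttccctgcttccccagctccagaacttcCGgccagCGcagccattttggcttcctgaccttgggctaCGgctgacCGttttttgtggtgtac
COX8C: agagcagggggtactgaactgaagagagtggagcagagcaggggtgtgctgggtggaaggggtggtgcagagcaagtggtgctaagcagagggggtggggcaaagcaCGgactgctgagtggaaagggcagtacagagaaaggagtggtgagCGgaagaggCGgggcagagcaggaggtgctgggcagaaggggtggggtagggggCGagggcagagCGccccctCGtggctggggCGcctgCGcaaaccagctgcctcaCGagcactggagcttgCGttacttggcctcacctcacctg

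The COX6A1 window held 22 CpG dinucleotides and the COX6A2 window 5. COX8A had 18 and COX8C had 10, although COX8C was richer in G and C (64.3% against 55.0%). COX7B and COX7B2 had 14 and 8. COX6B2 went the other way, with 31 CpG dinucleotides against 16 in COX6B1, so a CpG-dense window was also seen without a listed peak. Across the 86 genes of the family with H3K27ac within 1 kb of a listed start the median was 23 CpG dinucleotides. The median was 25.8 over all 10428 protein-coding genes with such a peak and 6 over the 5385 without one.

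Of the 90 genes with a listed start, 86 had an H3K27ac peak within 1 kb of it (95.6%, against 65.9% of all protein-coding genes with a start). Within 500 bp the number was again 86 (against 65.0%). The 4 without were COX6A2, COX6B2, COX7B2 and COX8C. The start itself lay inside a peak in 68 genes, or 75.6%, against 46.6% of all genes. Among genes with H3K27ac within 1 kb of a start the shares were 79.1% in the family and 70.7% in all. Coverage by H3K27ac peaks was high on either side of the start and lower just before it. At 300 bp upstream, 83.8% of the 90 genes had the position inside a peak. The share fell to 45.3% at 50 bp upstream and reached 91.1% at 100 bp downstream. For all genes with H3K27ac at a start, the same 3 features stood at 72.2% (300 bp upstream), 48.5% (100 bp upstream) and 84.5% (150 bp downstream).

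**Figure D2:**
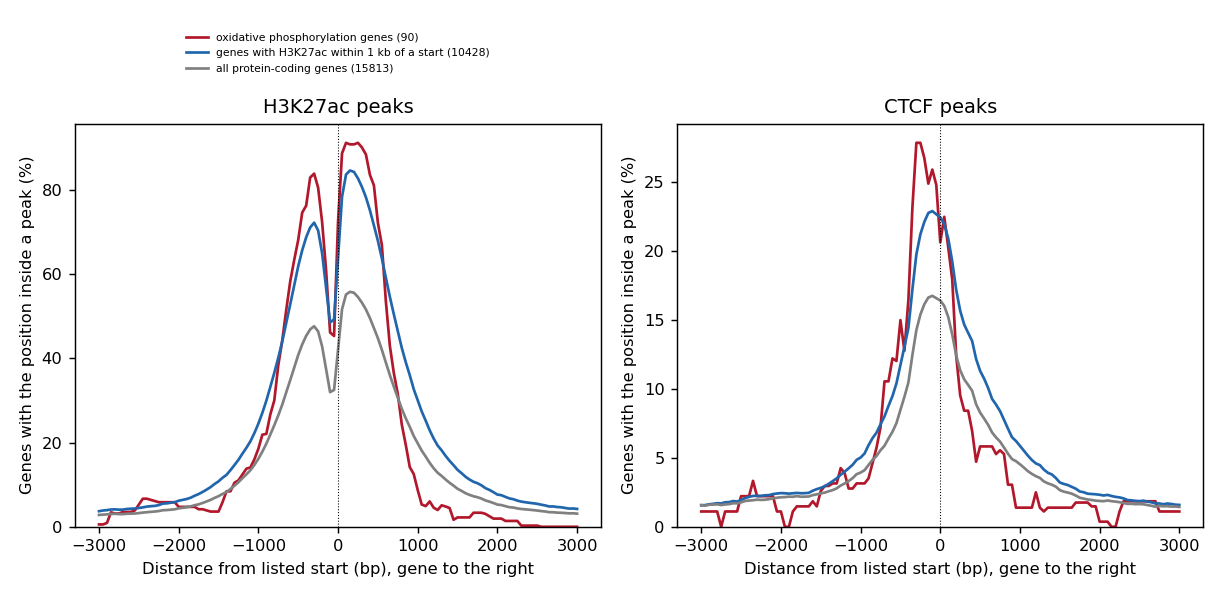
Share of genes (y axis, percent) whose position at each distance from a listed start (x axis, bp, gene to the right) lies inside an H3K27ac peak (left) or a CTCF peak (right), with several starts of 1 gene averaged so that each gene counts equally. The H3K27ac curve of the 90 oxidative phosphorylation genes has maxima of 83.8% upstream and 91.1% downstream with a dip to 45.3% between them. Their CTCF curve is highest at 27.9%, at both 300 and 250 bp upstream. The CTCF curves of genes with H3K27ac at a start and of all genes are highest at 22.9% and 16.8%, both 100 bp upstream.

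The strongest peak usually stood at the start rather than within the gene. Its summit lay within 1 kb of a start in 84 of the 86 genes (97.7%, against 84.5% of all genes with H3K27ac at a start). The summit was downstream in 56 of them (65.1%, against 63.5%). In 49 it fell 80 to 180 bp downstream (57.0%, against 31.5%), a band chosen after the positions were seen. The exceptions were NDUFB6 and NDUFC1. The strongest peak of NDUFB6, with a fold enrichment of 36.2, lay 20.7 kb from its start and held the starts of SMIM27 and TOPORS, whereas the peak at its own start had 20.5. The strongest peak of NDUFC1 lay 5.54 kb from its nearest start, with 26.8 against 14.9 for the peak 417 bp upstream. That upstream peak held the start of NAA15, and the peak with its summit 1 bp from a listed start of NDUFC1 had 8.06. Gene length also differed, and its part in these shares was not tested: the median was 10857 bp in the family and 24170.5 bp over all protein-coding genes.

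Some of these promoters are shared with a neighbour. A start of another gene on the opposite strand, within 1 kb upstream, was listed for 36 of the 90 genes (40.0%, against 22.1% of all genes). Among genes with H3K27ac at a start it was listed for 36 of 86 in the family (41.9%, against 30.2%). The strongest H3K27ac peak held a listed start of another gene in 21 of 101 genes (20.8%, against 20.2% of all genes with H3K27ac, a share near the background), and at those the acetylation cannot be assigned to a single gene. It overlapped the interval of another protein-coding gene in 31 of 101 (30.7%, against 22.6%). When peaks that hold another gene's start were left out, 88 of the 109 genes had a peak (80.7%, against 66.2% of all genes). Among marked genes of the family the median fold enrichment was 18.3 with such a divergent neighbour and 19.6 without. Over all marked genes the order was the other way, with 19.5 and 16.5, and neither difference was tested.

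Complex I, which oxidises NADH and is the largest of the complexes, was marked at 45 of 45 genes (against 70.8% of all protein-coding genes). Its 37 subunits had a median of 21.2 and its 8 assembly factors a median of 15.6. NDUFB1, an accessory subunit of the membrane arm, had the highest value of the family at 58.5, in a peak of 1901 bp that also held the start of CPSF2. NDUFV1, the subunit that binds NADH and FMN, had the lowest at 4.87, with 2 narrow peaks whose summits lay on either side of its start. Further subunits of the electron path were higher, with 31.3 at NDUFS1, 39.7 at NDUFS7 and 20.3 at NDUFS8. Among the assembly factors the range ran from 10.3 at NDUFAF5 to 40.4 at NDUFAF6, which also held the largest number of peaks, 18, in an interval of 222698 bp. The peak of 40.4 lay inside that interval, from 94949498 to 94950844 on chromosome 8, whereas the interval begins at 94895799. No start was listed for NDUFAF6, so that peak cannot be assigned to its promoter. NDUFA10 held 7 peaks, of which only the one at its start (31.5) exceeded 8.43, and the read-through gene NDUFC2-KCTD14 held 9, none above 12.9.

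Complex II oxidises succinate and is the one complex with no mitochondrially encoded subunit. All 8 of its genes were marked (against 70.8% of all protein-coding genes). SDHA, the flavoprotein, reached 11.9, in a peak upstream of its start that also held the start of CCDC127. The peak with its summit 356 bp downstream of the SDHA start had 4.32. SDHB, the iron-sulfur subunit, reached 16.4, and the membrane anchors SDHC and SDHD reached 26.5 and 10.6. SDHA stood out for number rather than height, with 10 peaks. Of these, 4 had summits within 1.35 kb of its start, and 6 had summits 34.0 to 46.1 kb into the gene with fold enrichments from 3.45 to 5.59. The assembly factors extended from 8.47 at SDHAF3 to 41.0 at SDHAF2, whose strongest peak held the start of CPSF7.

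Complex III passes electrons from ubiquinol to cytochrome c. Of its 9 genes 8 were marked (against 70.8% of all protein-coding genes), with a median of 22.8. UQCRC2, a core protein, had the highest value at 44.5, and UQCRFS1, the Rieske iron-sulfur protein, had the lowest at 15.6. UQCRH, the hinge protein, had a broad peak of 3460 bp at 36.1 that also covered the start of LRRC41.

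Complex IV reduces oxygen to water. All 10 of its assembly factors were marked, with a median of 18.8, and 10 of its 16 nuclear subunits, with a median of 16.3. The share over all protein-coding genes was 70.8%, and the subunits lay below it. COX7A2L, which takes part in assembling supercomplexes, had the highest value at 53.8. COX17, a copper chaperone, had the lowest among assembly factors at 6.18. COX10 and COX15, which make heme A, were close to one another at 17.4 and 16.9. Among subunits COX8A was highest at 29.8 and COX6B1 lowest at 5.42. COX19, a small protein of the copper pathway, held 7 peaks, with 20.3 at its start and no more than 4.78 elsewhere.

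Complex V, the ATP synthase, was marked at 18 of 19 genes (against 70.8% of all protein-coding genes), with a median of 17.9. The alpha subunit ATP5F1A had the highest value at 48.2 and the catalytic beta subunit ATP5F1B had 18.1. The delta subunit ATP5F1D had the lowest at 7.28. ATP5IF1, the inhibitor of ATP hydrolysis, had 10.2. Of the 3 genes that encode the same mature c-ring protein, ATP5MC1 had 23.1, ATP5MC2 15.4 and ATP5MC3 13.6. The groups' ranges overlapped throughout, and with 1 list the differences between group medians were not tested.

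The other genes of the pathway, from a list of 51 that the symbol rule does not reach, were all marked (against 70.8% of all protein-coding genes). Their median was 17.5, against 15.7 over all protein-coding genes with a peak. GABPA among them was marked only by the peak of 22.5 that it shares with ATP5PF. Cytochrome c (CYCS) had 18.9 and cytochrome c1 (CYC1) had 17.5. Among 9, 14 and 4 further assembly factors of complexes I, IV and V, values ran from 5.16 at COA3 to 46.1 at COA8. The 16 regulators of nuclear and mitochondrial gene expression ranged from 5.02 at PPARGC1B to 86.8 at GABPB1, with 57.8 at NRF1, 31.7 at TFAM and 11.0 at PPARGC1A.

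CTCF was found at 64 of the 109 genes (58.7%, 95% Wilson interval 49.3 to 67.5%), against 60.4% of all protein-coding genes, a share near the background. The start itself lay inside a CTCF peak in 21 of 90 genes (23.3%, against 19.9%). With several starts of 1 gene averaged, that share was 20.6%, against 22.5% of genes with H3K27ac at a start and 16.4% of all genes. Both marks were present at 63 genes (57.8%, against 51.8%). With the strongest 50% of each list CTCF was found at 39 genes (35.8%, against 41.7%) and both marks at 38 (34.9%, against 33.7%), so the share with both marks was then near the background. Without peaks that hold another gene's start, CTCF was found at 55 (50.5%, against 57.8%). Within 1 kb of a start, CTCF was listed for 39 of 90 genes (43.3%, against 35.4%), and among genes with H3K27ac there it was 39 of 86 (45.3%, against 47.5%). The highest CTCF signal per gene, the authors' peak value on a scale that is not stated, had a median of 133 in the family and 153 over all genes with a CTCF peak. Without the 1 kb extension CTCF was found at 53 of the 109 genes (48.6%, against 55.6% of all protein-coding genes). Both marks were then at 52 (47.7%, against 47.2%). No interval was computed for these 2 shares. Genes of the family were shorter, with a median length of 10857 bp against 24170.5 bp. The part of length in the CTCF shares and levels was not tested. For 11 genes the CTCF peak lay in the 1 kb extension only, among them NDUFA6 (351) and COX14 (291). Just outside it, peaks lay 1.33 kb from ATP5PO, 1.86 kb from UQCR10 and 1.96 kb from UQCRC2.

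By complex, CTCF was listed at 28 of 45 genes of complex I, 6 of 8 of complex II, 6 of 9 of complex III, 12 of 26 of complex IV and 10 of 19 of complex V. The share over all protein-coding genes was 60.4%. The strongest signals per group were 351 at NDUFA6, 342 at NDUFAF3, 152 at SDHB, 353 at SDHAF2, 259 at UQCRC1, 159 at COX6A1 and 291 at COX14. The highest of all belonged to ATP5MC2, one of the c-ring genes, at 474.5. No protein-coding gene had a higher one. The peak ran from 53675948 to 53676490 on chromosome 12. Its summit lay between 2 H3K27ac peaks of 15.4 and 9.47, and the CTCF peak overlapped both and covered their summits. ATP5MJ, a small accessory subunit, followed within complex V at 367, and ATP5ME, the e subunit, at 343.

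**Figure D3:**
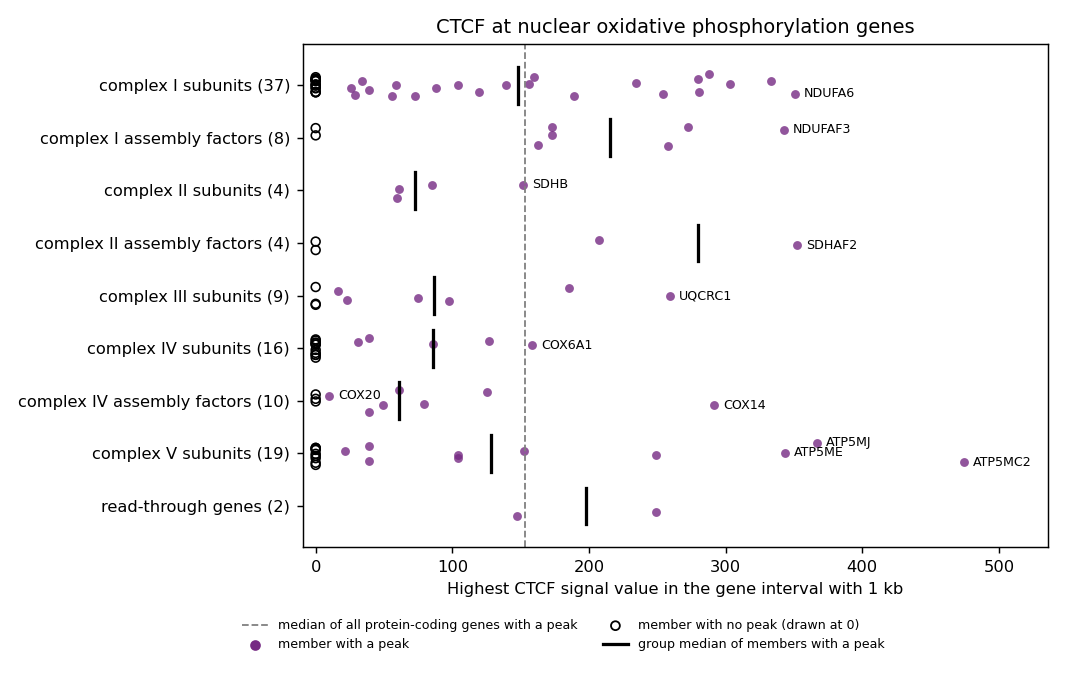
Highest CTCF signal value per gene (x axis, linear, scale of the authors) for the 109 genes by role group (y axis). Filled points are genes with a CTCF peak, open points at 0 are the 45 genes with none, black bars are group medians and the dashed line is the median of 153 over all protein-coding genes with a peak; ATP5MC2 lies farthest to the right at 474.5.

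The 93 distinct CTCF peaks of the family overlapped an H3K27ac peak in 57 cases (61.3%, 95% Wilson interval 51.1 to 70.6%, against 28.1% of the whole CTCF list). The share was 36.6% when the CTCF summit itself had to lie inside an H3K27ac peak, against 17.9% of the list by the same rule. The comparison sets short intervals around genes against the whole genome. A CTCF summit lay within 300 bp of a start in 25 genes (27.8% of 90, 95% Wilson interval 19.6 to 37.8%, against 21.0% of all genes). The share among genes with H3K27ac at a start was not computed for this distance. The CTCF summit was upstream of that start in 18 of the 25, at a median position of -115.5 bp and a median signal of 208. It was downstream in 7, with a median signal of 39.1. The strongest summit on the downstream side was that of ATP5MC2, which lies 120 bp downstream of one listed start and 127 bp upstream of another. For all genes the upstream share was 61.8%, with median signals of 109 upstream and 49.8 downstream. The family's CTCF peaks that are exactly 800 bp wide have their listed summit at the middle of the peak. Such peaks gave the downstream summits of ATP5F1A, NDUFA7, ATP5IF1, NDUFA13 and NDUFC1. They also gave the upstream summits of SDHD, NDUFS7, NDUFV3 and COX20. The part of peak width in these positions and signals was not tested.

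The next 4 promoters are printed because they hold a CTCF summit or the motifs of factors known for this family. NRF1 (nuclear respiratory factor 1), GABPA (an ETS protein also called nuclear respiratory factor 2) and YY1 are textbook regulators of nuclear oxidative phosphorylation genes. Capitals mark the NRF1 core GCATGCGC in ATP5MC2. In ATP5ME they mark that core, the ETS core CCGGAAG and the CTCF core AGGGGGC. In ATP5PF they mark the NRF1 core, the ETS core and the YY1 core AAGATGGC, and in SDHD the full NRF1 site, which is this core with GC added before it, and the ETS core. Either strand was searched. The windows lie on the minus strand at chr12:53676034-53676333 (ATP5MC2), chr4:674227-674526 (ATP5ME) and chr21:25735005-25735304 (ATP5PF), and on the plus strand at chr11:112086623-112086922 (SDHD).
ATP5MC2: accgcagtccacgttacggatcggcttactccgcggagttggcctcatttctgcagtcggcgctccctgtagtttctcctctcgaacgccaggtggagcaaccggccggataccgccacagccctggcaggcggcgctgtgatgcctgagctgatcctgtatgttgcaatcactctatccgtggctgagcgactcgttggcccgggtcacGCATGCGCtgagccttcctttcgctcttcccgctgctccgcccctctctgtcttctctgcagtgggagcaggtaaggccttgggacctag
ATP5ME: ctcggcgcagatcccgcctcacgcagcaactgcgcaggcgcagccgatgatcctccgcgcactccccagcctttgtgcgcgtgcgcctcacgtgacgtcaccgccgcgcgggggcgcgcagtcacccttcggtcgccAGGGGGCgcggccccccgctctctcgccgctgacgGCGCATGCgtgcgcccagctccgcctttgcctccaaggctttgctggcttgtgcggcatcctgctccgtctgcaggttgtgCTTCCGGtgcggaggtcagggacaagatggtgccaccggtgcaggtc
ATP5PF: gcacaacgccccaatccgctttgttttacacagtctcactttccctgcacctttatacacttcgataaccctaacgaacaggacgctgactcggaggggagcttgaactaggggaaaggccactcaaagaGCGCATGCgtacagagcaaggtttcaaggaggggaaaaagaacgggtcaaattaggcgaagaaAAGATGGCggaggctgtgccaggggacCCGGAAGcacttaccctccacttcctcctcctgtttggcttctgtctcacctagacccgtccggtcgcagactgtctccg
SDHD: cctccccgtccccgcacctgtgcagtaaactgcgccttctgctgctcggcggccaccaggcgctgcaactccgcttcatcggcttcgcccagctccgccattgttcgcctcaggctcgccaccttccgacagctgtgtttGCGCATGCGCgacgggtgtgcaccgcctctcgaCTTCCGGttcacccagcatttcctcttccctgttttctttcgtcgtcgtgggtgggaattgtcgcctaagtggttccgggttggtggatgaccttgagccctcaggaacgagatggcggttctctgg

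In ATP5ME the CTCF core match occupies positions -113 to -107, counted with the start as +1, and the CTCF summit of signal 343 lies 113 bp upstream. An NRF1 core follows at -78 to -71 and an ETS core at 4 to 10. H3K27ac stood on both sides, with 21.3 upstream, in a peak that also held the start of MYL5, and 4.63 downstream. In ATP5MC2 the NRF1 core is at -40 to -33, downstream of the CTCF summit. ATP5PF encodes a coupling subunit of the ATP synthase, and its promoter is shared with GABPA itself. One H3K27ac peak of 2520 bp with a fold enrichment of 22.5 covered the starts of both genes. In that window the NRF1 core is at -120 to -113, the YY1 core at -57 to -50 and the ETS core at -30 to -24. In SDHD the full NRF1 site is at -110 to -101 and the ETS core at -77 to -71, and a CTCF summit of signal 61.1 lies 134 bp upstream. That CTCF peak is one of 27 among the 93 at these genes that are exactly 800 bp wide (29.0%, against 33.4% of the list).

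The same motifs were counted in all windows, and a gene was counted once if any of its windows held the motif. The NRF1 core was found in 19 of 90 genes (21.1%, 95% Wilson interval 14.0 to 30.6%), against 4.89% of all protein-coding genes and 6.70% of those with H3K27ac at a start. Over all 22156 windows its share was 3.74%. The full NRF1 site, every match of which also counts for the core, was in 7 genes (7.78%, against 1.99% and 2.87%, and 1.50% of windows): ATP5F1C, COX17, COX18, NDUFA8, NDUFAF5, NDUFB4 and SDHD. The YY1 core was in 14 genes (15.6%, interval 9.50 to 24.4%, against 4.67% and 6.55%, and 3.53% of windows), with a median position 20.5 bp downstream of the start. The ETS core was in 29 genes (32.2%, interval 23.5 to 42.4%, against 16.5% and 22.6%, and 12.8% of windows). Every gene of the family counted for these motifs was among the 86 with H3K27ac at a start.

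The remaining motifs were no more frequent than in marked genes as a whole. The GC box GGGCGG was in 59 genes (65.6%, against 64.3% of all genes and 77.8% of those with H3K27ac, and 56.3% of windows). The CCAAT box, spelled CCAAT, was in 34 (37.8%, against 42.1% and 44.2%, and 34.6% of windows). The CTCF core was in 13 (14.4%, interval 8.64 to 23.2%, against 21.7% and 25.6%, and 17.5% of windows). Among the 86 genes of the family with H3K27ac at a start, the GC box was in 58, the CCAAT box in 31 and the CTCF core in 11. A match of letters is not a bound site, and these shares were not tested. Genes for which windows were not used here include ATP5F1B, ATP5F1D, ATP5MC3, ATP5MF, ATP5MF-PTCD1, ATP5MGL, COX11, COX4I2, COX6C, COX7A1, NDUFAF6, NDUFB5, NDUFB9, NDUFC2, NDUFS5, SDHC, UQCRB and UQCRHL.

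**Figure D4:**
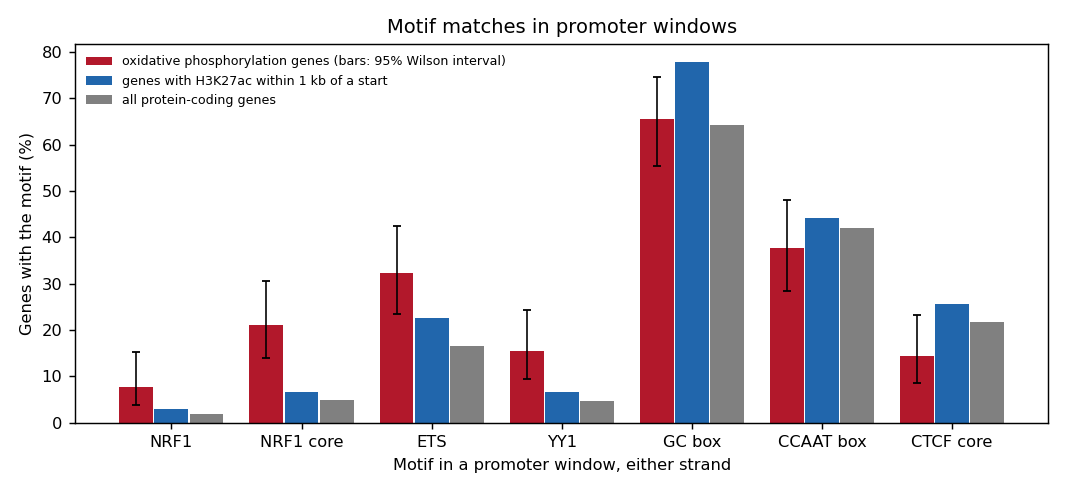
Share of genes (y axis, percent, bars from 0) with each motif (x axis) in a promoter window, for the 90 oxidative phosphorylation genes with 95% Wilson intervals, for all 10428 genes with H3K27ac within 1 kb of a start and for all 15813 protein-coding genes with a window. The NRF1 core stands at 21.1%, 6.70% and 4.89% in the 3 sets, and the GC box at 65.6%, 77.8% and 64.3%.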

How the data were processed

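ChIP-seq peaks were analysed from 1 list per antibody, each covering 2 libraries; the 2 input libraries had no values used here. Per the submitters' processing notes the build was hg38 and cutadapt 1.16 was used; the peak caller and its settings are not given in the sources used here. The deposited columns were a CTCF signal value of unstated scale, an H3K27ac fold enrichment (a ratio, judged from values and layout), −log10 q values, and a pipeline score whose highest value was 1000. The lists held 43677 CTCF and 78694 H3K27ac peaks. The CTCF list is named as an IDR (irreproducible discovery rate) list and the H3K27ac list is not. The 2 lists may therefore differ in how replicates were filtered.

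Genes and promoter windows were those of RefSeq GRCh38.p14, the same assembly. A gene's level was its highest peak value. Overlap counting was tested on simulated intervals. Python 3.11.15, numpy 2.4.6, pandas 2.3.3, scipy 1.17.1 and matplotlib 3.10.9 were used. H3K27ac peaks of q above 0.05 were kept (8 of 235 in the family). CTCF peaks of q above 0.05 were kept as well. COX20 and UQCRFS1 were counted as having CTCF only through such a peak, with −log10 q of 0.029 and 0.544. Named genes were the extremes of each role group, all genes without H3K27ac, paralog pairs, the 5 with the most peaks and catalytic subunits. The COX6A and COX8 promoters were chosen for printing, and some other genes named, after their values were seen. The members and lists were chosen with earlier results of these data known. Alternatives were stricter lists, other overlap rules, no extension and removal of the recurrent CTCF width of 800 bp. A result for 1 named gene is not reported here.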

Additional observations from a re-analysis of the deposited data

How the results depend on the processing

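No paired analysis was possible because each list covers both replicates together, and leaving out a replicate was not run for the same reason. Of 27 alternatives, 19 left the value the same and 8 moved it. A count within 1.5 times its main value or a share within its interval was taken as the same. No rule for a reversal was applied. The limit for counts is wide: 49 genes with CTCF without peaks of 800 bp, from 64, counted as the same. Restriction to the strongest 50% of each list moved the number of genes with CTCF from 64 to 39 (41.7% of all protein-coding genes), the number with both marks from 63 to 38 (33.7% of all genes) and the median highest CTCF signal from 133 to 207 (206 over all genes). The other medians were counted as moved at any change: without the extension the H3K27ac median was 17.7 and the CTCF median 119, without read-through genes the H3K27ac median was 19.2, and without CTCF peaks of 800 bp the CTCF median was 163. The share of the family's CTCF peaks that overlapped H3K27ac was 36.6% with the summit rule (17.9% of the whole list). The causes were not tested beyond the shorter lists and intervals themselves. The 101 genes with H3K27ac numbered 101 in 4 alternatives on all 109 genes, 99 of 107 without read-through genes, and 88 without peaks that hold the start of another gene (66.2% of all genes), an alternative chosen after seeing the data. Depth is unknown, so an unlisted peak is not an absent mark.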

Other observations

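Several genes with little H3K27ac had strong CTCF in their interval, a contrast chosen after the values were seen. At NDUFV1 a CTCF peak with a signal of 281 had its summit 28 bp upstream of the start, and its H3K27ac peaks had fold enrichments of 4.52 and 4.87. At ATP5MJ the CTCF signal was 367, with the summit 108 bp upstream, and the single H3K27ac peak had a fold enrichment of 7.39 on the downstream side. ATP5F1D, for which no start was listed, had a CTCF signal of 249 and a highest fold enrichment of 7.28. The pattern was not general: genes of the family with CTCF had a median highest fold enrichment of 19.5 (63 genes) and those without CTCF 17.2 (38 genes), and over all protein-coding genes the medians were 16.2 and 14.4.

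The CTCF core AGGGGGC was found in 3 of 23 promoter windows of the family that held a CTCF summit (13.0%), and in 14.6% of its 89 windows that held none. Over all protein-coding genes it was in 29.5% of 2532 windows with a summit and 15.9% of those without. Windows of 1 gene can overlap, and the difference was not tested.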
